A study of Homo sapiens with 6 samples.

Results

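The receptor tyrosine kinases EGFR, ERBB2, ERBB3, MET, AXL, IGF1R, INSR, FGFR1, EPHA2 and DDR1 were followed in prostate cancer cells by gene symbol in the RNA-sequencing table of DU145 cells. Of these 10 genes, 8 had a row among the 10542 genes listed, and ERBB3 and EPHA2 were not analysed here. DU145 is an established human epithelial prostate cancer cell line. DU145-TFEB cells had received a lentivirus that overexpresses TFEB, a transcription factor of lysosomal and autophagy genes, and DU145-vector cells a blank vector lentivirus. Neither group had another treatment in the labels, and 3 libraries of polyadenylated RNA were sequenced from each. The promoter that drives the transgene, and whether the 3 libraries of a group came from separate cultures, are not given in the sources used here, so p-values measure only the spread between these libraries, which may be technical.

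Receptor tyrosine kinases are membrane proteins that bind a growth factor, a matrix protein or a ligand on a neighbouring cell outside the cell and, once paired, phosphorylate tyrosines inside it. Adaptor proteins dock on these tyrosines and pass the signal to the RAS and PI3K pathways. Ubiquitin ligases, phosphatases and endosomal sorting to the lysosome end the signal, and in prostate cancer cells such receptors are known for growth and invasion signals.

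The values are normalized read counts, which are reads on a gene divided by 1 size factor per library, and the libraries held between 13999961 and 16511477 reads on the listed genes. TFEB itself had 6325, 6301 and 6036 normalized counts in the DU145-TFEB libraries against 127, 124 and 125 in the DU145-vector libraries, a log2 fold change of 5.62 (SE 0.0751, limma adjusted p 3.18e-10). Of 9 epithelial markers, 4 had a row, and the keratins KRT8 and KRT18 stood at 16978 ± 3348 and 6385 ± 1328 normalized counts in DU145-TFEB and at 26868 ± 1956 and 10842 ± 768 in DU145-vector (SD, n = 3 here and for every mean below). KRT8, KRT18 and KRT19 fell, by 0.68, 0.78 and 0.38 on the log2 scale, and were at -1.40, -1.56 and -1.44 after removal of the trend against GC content and gene length, while KRT19 missed the threshold with DESeq2 (-0.14, adjusted p 0.316). CLDN4 rose by 0.78 but was at -0.069 with the trend removed. How far these shifts bear on the receptors was not tested. In bulk RNA, fewer cells with a transcript and less of it per cell cannot be told apart.

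With limma, 5 of the 8 receptors rose in DU145-TFEB and 3 fell. ERBB2, AXL, INSR, FGFR1 and DDR1 were 1.43 to 1.74 times as high as in DU145-vector, whereas MET was 3.67-fold, EGFR 2.72-fold and IGF1R 1.28-fold lower, but AXL, DDR1 and IGF1R changed sign under other scalings given with each. Over all listed genes 47.6% were called higher and 52.4% lower, because the table holds the genes that had already passed a test of this same contrast, so a call is not independent evidence. At both cutoffs, an adjusted p under 0.05 and a log2 change of more than 1.5 either way, MET was the only member called, against 16.5% of all listed genes called lower, and no receptor was called higher, against 2.54% of all listed genes. DU145-TFEB and DU145-vector libraries did not overlap for any of the 8 receptors, as was so for 99.3% of all listed genes. The exact two-sided permutation p was 0.1 for each receptor, the smallest that 3 against 3 libraries allow.

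**Figure D1:**
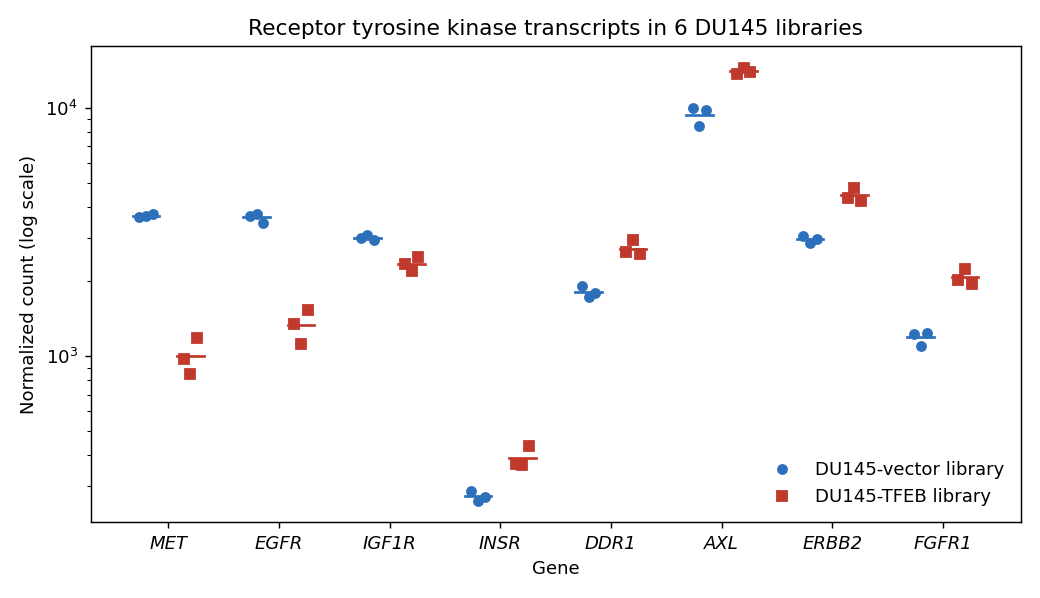
Normalized read counts (log axis) of the 8 receptors in each of the 6 libraries, with 1 point per library and a bar at the group mean. MET and EGFR lie between 845 and 1536 in DU145-TFEB and between 3441 and 3744 in DU145-vector, and AXL lies above every other receptor in all libraries.

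MET, the receptor of hepatocyte growth factor, showed the largest fall of the 8. The gene lies at chr7:116672390-116798386 on the plus strand of GRCh38 (ENSG00000105976). Its normalized counts were 976, 845 and 1189 in DU145-TFEB and 3650.2, 3682 and 3727 in DU145-vector. The vector libraries thus lay close together and far above the others. The means were 1004 ± 173 and 3686 ± 38.6, a log2 fold change of -1.89 (SE 0.113, limma adjusted p 2.58e-06). At least 928 reads stood behind each value. None of MET's exon bases overlapped another annotated gene.

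AXL, a receptor of the GAS6 ligand, was the most abundant of the 8 and moved the other way. The gene lies at chr19:41219203-41261766 on the plus strand (ENSG00000167601). It had 13638, 14525 and 13963 normalized counts in DU145-TFEB and 9947, 8426 and 9815 in DU145-vector. Every DU145-TFEB library was above every vector library, with means of 14042 ± 449 and 9396 ± 843. The log2 fold change was 0.58 (SE 0.0784, limma adjusted p 9.27e-05), but -0.047 (adjusted p 0.496) once each library's trend against GC content and gene length had been removed. It was 0.28 (adjusted p 0.00410) when the libraries were also centred, so AXL's direction depended on whether the libraries were centred after that step.

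The start-site windows of MET and EGFR, the receptors that fell most, and of AXL, the most abundant, are printed because TFEB family factors are known to bind an E-box with the letters CACGTG. They come from RefSeq (GRCh38.p14, plus strand, 5′ to 3′, the 250 bases before the start site and, for MET, the first 15 bases after it), with CACGTG in capitals.
MET, chr7:116671946-116672210: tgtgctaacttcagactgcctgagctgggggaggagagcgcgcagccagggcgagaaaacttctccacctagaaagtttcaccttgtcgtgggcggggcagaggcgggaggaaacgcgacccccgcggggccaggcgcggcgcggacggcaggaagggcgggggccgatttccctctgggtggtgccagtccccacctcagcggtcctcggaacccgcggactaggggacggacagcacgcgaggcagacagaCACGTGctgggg
EGFR, chr7:55018767-55019016: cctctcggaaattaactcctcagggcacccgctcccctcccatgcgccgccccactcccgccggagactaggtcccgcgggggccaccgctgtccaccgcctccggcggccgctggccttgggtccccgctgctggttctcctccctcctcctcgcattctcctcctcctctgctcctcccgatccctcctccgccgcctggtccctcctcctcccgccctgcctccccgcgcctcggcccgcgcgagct
AXL, chr19:41218973-41219222: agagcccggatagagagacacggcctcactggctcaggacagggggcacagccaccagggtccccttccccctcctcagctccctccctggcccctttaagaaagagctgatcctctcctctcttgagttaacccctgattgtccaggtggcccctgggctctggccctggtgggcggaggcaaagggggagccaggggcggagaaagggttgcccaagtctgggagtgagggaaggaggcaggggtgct
EGFR and AXL had 2 windows each, and the one with the lower start coordinate is printed. Windows were searched over 250 bases before and 50 after the start site, on both strands. CACGTG occurred in 2548 of 35116 RefSeq windows, or 7.26%. Of the 16 windows of the 7 receptors that could be matched, 1 held it, that of MET, where the motif begins 4 bases into the RefSeq transcript. That motif lies upstream of the MET gene start given above, at 116672390. TCACGTGA, a longer form that contains CACGTG, occurred in 344 windows, or 0.98%, and in none of the 16. A match describes letters in a window and not a binding site.

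EGFR and ERBB2 belong to the same receptor family and moved in opposite directions. EGFR binds EGF, TGF-alpha and related ligands, and lies at chr7:55019021-55211628 on the plus strand (ENSG00000146648). Its normalized counts were 1343, 1118 and 1536 in DU145-TFEB against 3683, 3744 and 3441 in DU145-vector. All DU145-TFEB libraries were far below the vector libraries, and the gap exceeded the spread within either group. The means were 1332 ± 209 and 3623 ± 160.2, a log2 fold change of -1.45 (SE 0.110, limma adjusted p 5.07e-06). An antisense gene, EGFR-AS1, shares 1.49% of the EGFR exon bases.

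ERBB2 has no known ligand of its own and signals as the partner of the other ERBB receptors. It lies at chr17:39687914-39730426 on the plus strand (ENSG00000141736). ERBB2 had 4341, 4749 and 4224 normalized counts in DU145-TFEB and 3048, 2855 and 2955 in DU145-vector. The lowest DU145-TFEB library was above the highest vector library. The means of 4438 ± 276 and 2953 ± 96.9 gave a log2 fold change of 0.59 (SE 0.0705, limma adjusted p 4.72e-05). With the GC and length trend removed the log2 fold change was 0.10 and missed the threshold (adjusted p 0.101). It was 0.43 (adjusted p 2.28e-04) when the libraries were also centred. MIEN1 and PGAP3, on the opposite strand, share 5.53% and 1.88% of the ERBB2 exon bases. Both rose too, by 0.92 and 0.94 on the log2 scale, with PGAP3 at -0.034 after removal of the trend and at 0.29 when the libraries were also centred. Since strand use in counting is not given, reads of the shared bases cannot be told apart.

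IGF1R and INSR, the receptors of insulin-like growth factors and of insulin, also moved apart. IGF1R lies at chr15:98648539-98964530 on the plus strand (ENSG00000140443), with 2351, 2205 and 2508 normalized counts in DU145-TFEB against 2998, 3083 and 2936 in DU145-vector. The groups did not overlap, although the gap was small. Its means were 2354 ± 151 and 3006 ± 73.7, and it fell by 0.35 on the log2 scale (SE 0.0718, limma adjusted p 0.00113). The change was -0.11 and missed the threshold with DESeq2 (adjusted p 0.247), and was 0.019 when the libraries were also centred after removal of the trend (adjusted p 0.801). Of the 3 receptors that fell, IGF1R was the one whose call was lost under an alternative.

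INSR lies at chr19:7112255-7294034 on the minus strand (ENSG00000171105) and had the fewest reads of the 8, with at least 269 in each library. Its normalized counts were 368, 364 and 436 in DU145-TFEB against 287, 262 and 270.0 in DU145-vector. DU145-TFEB libraries were higher without exception, with means of 389 ± 40.5 and 273 ± 12.7. The log2 fold change of 0.51 (SE 0.114, limma adjusted p 0.00203) was 0.67 with the trend removed and lay between 0.42 and 1.00 over 19 alternatives, each with an adjusted p below 0.05.

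FGFR1, a receptor of fibroblast growth factors, had the largest rise of the 8. It lies at chr8:38400215-38468834 on the minus strand (ENSG00000077782). Its normalized counts were 2033, 2243 and 1952 in DU145-TFEB against 1234, 1104 and 1237 in DU145-vector. The difference between the groups was several times the spread within either, with means of 2076 ± 150.2 and 1192 ± 75.9. FGFR1 rose by 0.80 on the log2 scale (SE 0.0842, limma adjusted p 2.17e-05), and the 19 alternatives gave 0.74 to 1.20. LETM2 on the opposite strand, which fell by 0.81, shares 1.00% of the FGFR1 exon bases.

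DDR1 is a collagen receptor and differs from the others in that its ligand is matrix. It lies at chr6:30876421-30900156 on the plus strand (ENSG00000204580), with 2626, 2931 and 2588 normalized counts in DU145-TFEB and 1915, 1726 and 1795 in DU145-vector. Again the groups were apart, with means of 2715 ± 188 and 1812 ± 95.7. The log2 fold change was 0.58 (SE 0.0781, limma adjusted p 9.17e-05), but -0.22 (adjusted p 0.00676) with the trend removed. When the libraries were also centred it was 0.11 and missed the threshold (adjusted p 0.169).

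Dividing by gene length allows the receptors to be set beside each other, in normalized counts per kilobase of exon. The length is that of all annotated exons of a gene together, so the order of receptors depends on the annotation. In DU145-vector the order was AXL at 1823 ± 164, MET at 524 ± 5.48, EGFR at 289 ± 12.8, ERBB2 at 286 ± 9.39, IGF1R at 216 ± 5.29, DDR1 at 199 ± 10.5, FGFR1 at 86.1 ± 5.49 and INSR at 26.1 ± 1.22. Of the neighbours in this order, EGFR and ERBB2 overlapped. In DU145-TFEB the order was AXL at 2724 ± 87.1, ERBB2 at 430.0 ± 26.7, DDR1 at 298 ± 20.6, IGF1R at 169 ± 10.9, FGFR1 at 149.98 ± 10.8, MET at 143 ± 24.6, EGFR at 106 ± 16.7 and INSR at 37.3 ± 3.87. Here IGF1R and FGFR1, FGFR1 and MET, and MET and EGFR overlapped. AXL stayed first and INSR last, while MET moved from the second to the sixth place and EGFR from the third to the seventh. Among all listed genes, the level of MET per kilobase stood at percentile 87.2 in DU145-vector and 61.0 in DU145-TFEB, and that of INSR at percentile 18.4 and 31.2.

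Ratios of 2 receptors within a library do not depend on the size factors, and 3 pairs were compared. EGFR per kilobase was 0.996, 1.08 and 0.960 times ERBB2 in the vector libraries, and 0.255, 0.194 and 0.300 times ERBB2 in the DU145-TFEB libraries. Per kilobase of annotated exon, the receptors were thus near equal without the transgene and EGFR was well below ERBB2 with it. The difference in the mean log2 ratio was -2.04. MET per kilobase was 0.269, 0.320 and 0.278 times AXL in DU145-vector and 0.0524, 0.0426 and 0.0623 times AXL in DU145-TFEB, a difference of -2.47. IGF1R per kilobase was 7.83, 8.81 and 8.15 times INSR in DU145-vector and 4.78, 4.54 and 4.31 times INSR in DU145-TFEB, a difference of -0.86. Each pair had an exact two-sided permutation p of 0.1, adjusted over the 3 pairs 0.1. The differences were -1.22, -1.16 and -0.98 for the 3 pairs in the order above with the GC and length trend removed.

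**Figure D2:**
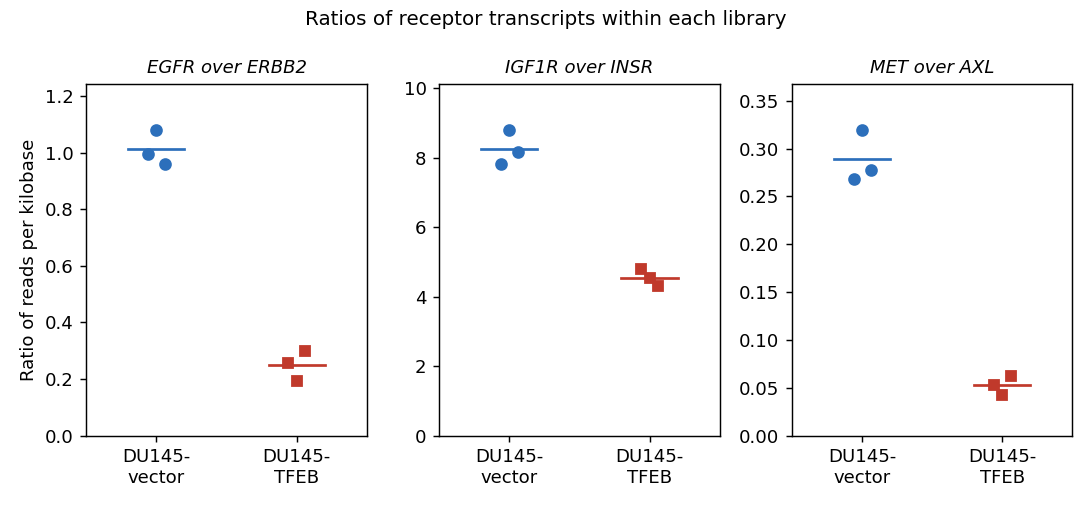
Ratio of normalized counts per kilobase (linear axes from 0) within each library for EGFR over ERBB2, IGF1R over INSR and MET over AXL, with 1 point per library and a bar at the group mean. All 3 ratios are lower in the 3 DU145-TFEB libraries, with EGFR over ERBB2 at 0.194 to 0.300 against 0.960 to 1.08.

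The fold changes of the listed genes moved with GC content, with a Spearman rho of 0.739 over 10537 genes as a description, which share the same 6 libraries. The median log2 fold change of all listed genes was -0.36, and -0.12 after rescaling with size factors that DESeq2 estimated from these genes, -0.03 with quantile normalization and -0.30 with the trend removed. That median was 0.025 when the libraries were also centred. The GC content of the longest transcript was 42.4% for MET and 47.5% for EGFR, the receptors that fell most, and 57.5% for ERBB2, 53.9% for AXL and 61.6% for DDR1. INSR at 49.0%, FGFR1 at 51.3% and IGF1R at 51.7% lay between these. The median over the listed genes was 47.3%, so EGFR lay near it. MET fell further than most listed genes, of which 7.32% had a lower log2 fold change, while for EGFR that share was 17.8%. A higher log2 fold change than that of FGFR1 was found in 14.3% of the listed genes.

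**Figure D3:**
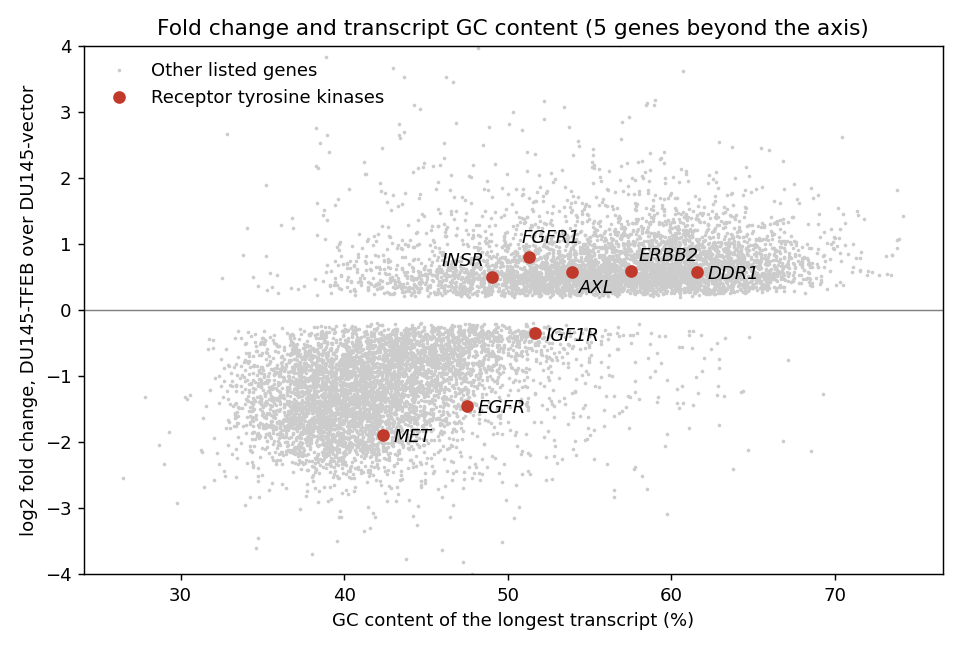
Log2 fold change of DU145-TFEB over DU145-vector against the GC content of the longest transcript in percent, with listed genes as small points and the 8 receptors named (5 genes lie beyond the axis). MET at 42.4% and EGFR at 47.5% GC are at the lower left of the receptors and DDR1 at 61.6% at the right.

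With the GC and length trend removed, MET fell by 1.21 (adjusted p 5.95e-07) and EGFR by 1.12 (adjusted p 3.17e-07) on the log2 scale, while FGFR1 rose by 0.87 (adjusted p 7.58e-06). IGF1R fell by 0.31 and INSR rose by 0.67. On this scale 2 receptors were called higher and 4 lower, against 15.6% and 53.7% of all genes. When the libraries were also centred, 4 were called higher and 2 lower. The share of all listed genes called was not counted on that scale, where their median moved from -0.30 to 0.025. The counts there thus give no result about the receptors. MET, EGFR, INSR and FGFR1 kept their sign and an adjusted p below 0.05 in each of the 19 alternatives, those that left out 1 library included. Over these, MET lay between -2.02 and -0.88 and EGFR between -1.56 and -0.79. ERBB2 kept its sign in 19 alternatives and IGF1R in 18, and AXL and DDR1 in 17.

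**Figure D4:**
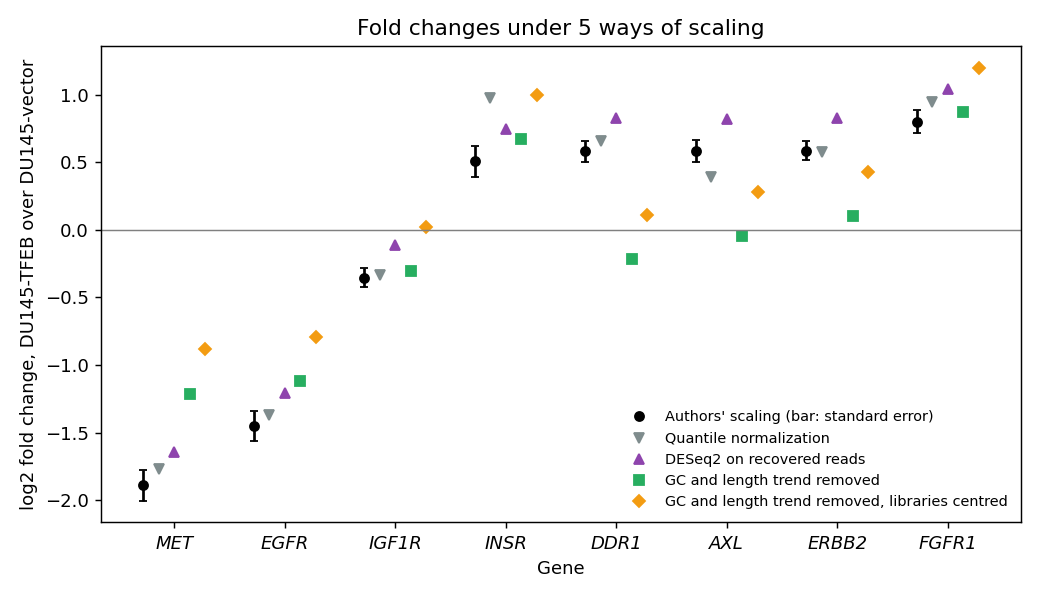
Log2 fold change of DU145-TFEB over DU145-vector for the 8 receptors under the authors' scaling, with its standard error as a bar, and 4 other scalings, 1 symbol each. MET and EGFR stay below 0 and FGFR1 and INSR above 0, whereas AXL and DDR1 cross to -0.047 and -0.22 with the GC and length trend removed. When libraries are also centred, IGF1R reaches 0.019 and AXL and DDR1 are at 0.28 and 0.11.

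Of 48 other receptor tyrosine kinases on the list, 18 had a row, and 11 of these rose and 7 fell, with a median log2 fold change of 0.49 against -0.36 over all listed genes. PTK7, a kinase-dead receptor of planar cell polarity, rose from 2376 ± 124.8 to 4493 ± 142 normalized counts (log2 fold change 0.92, limma adjusted p 4.84e-06), and was at 0.29 with the trend removed. TYRO3, of the AXL family, rose by 0.60 on the log2 scale, from 1256 ± 74.9 to 1912 ± 155, and was at 0.46 with the trend removed. FGFR4 rose by 0.71, but was at -0.34 with the trend removed and at -0.014 when the libraries were also centred. ROR1, a WNT5A receptor, fell from 419 ± 39.1 to 144 ± 11.1 (log2 fold change -1.53, limma adjusted p 6.34e-06), and was at -1.05 with the trend removed. LMTK2 fell by 0.29 on the log2 scale, but was at -0.054 with DESeq2 (adjusted p 0.585) and at -0.082 with the trend removed and libraries centred (adjusted p 0.293). RYK, a WNT receptor, fell by 0.60 but was at 0.54 with the trend removed and at 0.87 when the libraries were also centred. With the trend removed, 4 of the 18 were called higher and 10 lower, with a median of -0.38. Over all listed genes 15.6% were then called higher and 53.7% lower, with a median of -0.30, against 47.6% and 52.4% in the main fit. Since every listed gene had passed this contrast, the counts of this list and those below describe the rows and are not independent evidence.

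Ligands had a row for 22 of 57 genes, of which 15 rose and 7 fell (median log2 fold change 0.41). CSF1, the ligand of the macrophage receptor CSF1R, rose by 1.13 from 626 ± 28.2 to 1368 ± 68.4, but was at 0.20 and missed the threshold with the trend removed (adjusted p 0.102). It was at 0.53 (adjusted p 3.21e-04) when the libraries were also centred. VEGFA, a vascular growth factor, rose by 0.53 and was at 0.36 with the trend removed. EFNA1, a membrane ligand of EPH receptors, rose by 0.52 but was at -0.42 with the trend removed and at -0.089 when the libraries were also centred. FGF2, a fibroblast growth factor, fell from 658 ± 152 to 274 ± 37.9, a log2 fold change of -1.25, but was at -0.20 (adjusted p 0.119) with the trend removed and at 0.12 when libraries were also centred. EFNA5 and KITLG, the ligand of KIT, fell by 0.61 and 1.25, and were at -0.081 and -0.22 with the trend removed and at 0.25 and 0.11 when the libraries were also centred. With the trend removed, 2 of the 22 ligands were called higher and 11 lower (median -0.32).

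Sheddases, proteases and inhibitors that free or hold back ligands had a row for 17 of 26 genes, of which 13 rose and 4 fell (median log2 fold change 0.49). TIMP2, an inhibitor of metalloproteinases, rose by 1.02 from 6236 ± 450.5 to 12666 ± 466, and was at 0.43 with the trend removed. ADAM8 rose by 1.59 from 150.5 ± 32.3 to 454 ± 87.2, whereas ADAM10, which sheds EGF and betacellulin, fell by 1.51 from 3939 ± 259 to 1406 ± 328. ADAM9, a related metalloproteinase, fell by 1.27. With the trend removed ADAM8 was at 0.53, ADAM10 at -0.44 and ADAM9 at -0.34, and ADAM10 and ADAM9 missed the threshold when the libraries were also centred (-0.11, adjusted p 0.210, and -0.016, adjusted p 0.828). ADAM15 rose by 0.66 but was at -0.40 with the trend removed and at -0.077 when the libraries were also centred. With the trend removed the list had 4 genes called higher and 8 lower (median -0.15).

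Adaptors and proximal effectors had a row for 28 of 41 genes, of which 13 rose and 15 fell, with a median log2 fold change of -0.55. PIK3R1, the regulatory subunit of PI3K, fell by 2.1 from 421 ± 66.1 to 97.8 ± 19.5 normalized counts. PTPN11, the phosphatase SHP2, fell by 1.66 from 4428 ± 186 to 1422 ± 324, and the adaptor CRK fell by 0.97. With the trend removed PIK3R1 was at -1.18, PTPN11 at -0.96 and CRK at -0.80. SHC1, which links receptors to GRB2, rose by 0.61 from 16797 ± 903 to 25560 ± 1057. It was at -0.20 with the trend removed and at 0.13 (adjusted p 0.103) when the libraries were also centred. FRS3 and SH2B1 rose by 0.75 and 0.52, and were at -0.26 and -0.44 with the trend removed. When the libraries were also centred, they were at 0.064 and -0.11. On the trend-removed scale 1 of the 28 was called higher and 20 lower (median -0.45).

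Negative regulators of receptor signalling had a row for 27 of 37 genes, of which 9 rose and 18 fell (median log2 fold change -0.68). CBL, a ubiquitin ligase of EGFR and MET, had 1375, 1243 and 1566 normalized counts in DU145-TFEB against 4079, 3999 and 3989 in DU145-vector. It fell by 1.53 on the log2 scale (SE 0.0888, limma adjusted p 2.42e-06), and was at -1.08 with the trend removed. NEDD4, another ubiquitin ligase, fell by 2.27 and SPRED1, an inhibitor of RAS signalling, by 1.68, and they were at -1.17 and -0.67 with the trend removed. PTPRF, a receptor phosphatase, rose by 1.04 from 16471 ± 1367 to 33765 ± 566, and DUSP5, a phosphatase of ERK, by 1.20. Removal of the trend left PTPRF at 0.45 and DUSP5 at 0.39 (adjusted p 0.0460). TNK2 rose by 0.54 and was at -0.061 with the trend removed, when 4 of the 27 were called higher and 17 lower (median -0.50).

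Internalisation and sorting genes had a row for 25 of 30, of which 10 rose and 15 fell (median log2 fold change -0.60). USP8, which removes ubiquitin from receptors on endosomes, fell by 1.8 from 1521 ± 195 to 437 ± 58.8, and VPS4B and STAM, of the endosomal sorting machinery, fell by 1.43 and 1.17. On the trend-removed scale USP8 was at -0.81, VPS4B at -0.65 and STAM at -0.69. IGF2R, the mannose 6-phosphate receptor that also takes up IGF2, rose by 0.75 from 4382 ± 240.0 to 7375 ± 166, and DNM2, a dynamin of endocytosis, rose by 0.87, and they were at 1.02 and 0.28 with the trend removed. AP2A1, a subunit of the clathrin adaptor AP-2, rose by 0.62 but was at -0.25 with the trend removed. After that step, 5 genes of the list were called higher and 13 lower (median -0.18).

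**Figure D5:**
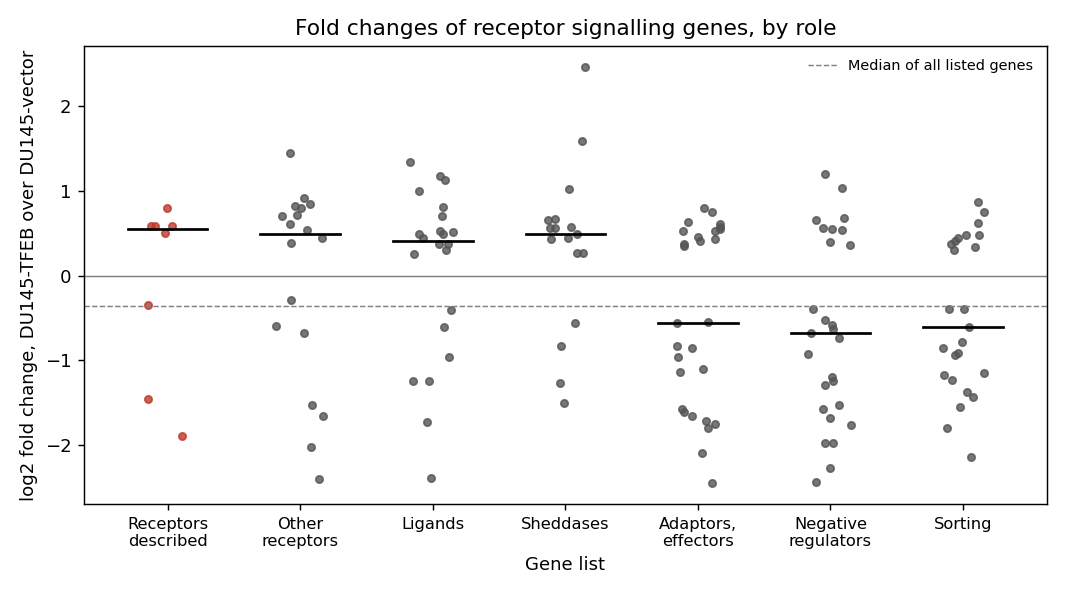
Log2 fold changes of DU145-TFEB over DU145-vector for listed genes by role, from receptors to sheddases, 1 point per gene with a bar at the median and a dashed line at the median of all listed genes, -0.36. Medians are above 0 for the other receptors, ligands and sheddases at 0.49, 0.41 and 0.49, and below 0 for adaptors, negative regulators and sorting genes. But with the GC and length trend removed, which is not plotted, all 6 medians are below 0, as is that of all listed genes at -0.30. On that scale sheddases at -0.15 and sorting genes at -0.18 lie above the median of all listed genes and the other lists below it.

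Over the 6 libraries, the listed gene most like each receptor was found by the Euclidean distance between centred log2 profiles, among 8143 genes. The gene nearest to DDR1 was ERBB2 at a distance of 0.0477 on the log2 scale, and the nearest to FGFR1 was EGFL7 at 0.0359. MET lay nearest to POLR2B at 0.0978 and EGFR nearest to OGA at 0.0579. For ERBB2, AXL, IGF1R and INSR the nearest were TBL3, DENND4B, SUPT7L and SLC26A6, at 0.0375, 0.0523, 0.0410 and 0.0925. The 2 groups did not overlap for 99.3% of all listed genes, so a near profile is mostly a similar fold change. MET and POLR2B, for example, had log2 fold changes of -1.89 and -1.88. Shared regulation of such genes was not tested.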

How the data were processed

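Polyadenylated RNA of 3 DU145-TFEB and 3 DU145-vector libraries had been prepared with a NEBNext Ultra kit, and the submitters' processing notes name CASAVA 1.8, HISAT2 2.1.0, edgeR and GRCh38, without roles. The counting program, strand setting and annotation are not given in the sources used here, although the 8 receptors lie at their GENCODE 29 positions. The authors deposited a normalized signal, each gene's reads divided by 1 size factor per library, with group means, which were not used. The authors also deposited log2 fold changes and p-values of their own comparison, used only to see how genes had been selected. The size factors lay between 0.950 and 1.099. Every listed gene had a deposited adjusted p below 0.05, so the table is a selection on the same contrast. The receptors and the gene lists were chosen with earlier results of these data known.

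The log2(normalized count + 1) values of all 10542 genes were fitted in R 4.3.3 by limma 3.58.1 (trend option on), without a block, and p-values adjusted by Benjamini-Hochberg. A filter of a mean of at least 1 removed no gene. Fold changes are on this log2 scale. The study's methods name DESeq2, but the deposited values are normalized, so DESeq2 1.42.0 and edgeR 4.0.16 were run as alternatives on the recovered reads, which were whole within 0.01 read. The GC and length trend was removed per library by loess with a span of 0.5, for the 10537 genes with a GC content from their longest GENCODE 29 transcript. A version that also centred the libraries was added after seeing the data. Centring moved the median of all listed genes from -0.30 to 0.025, so small changes can differ in sign between the 2 versions. The other alternatives covered the pseudocount, filters, library scaling, quantile normalization, a replicate block, a fold-change cutoff of 1 and each library left out.

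From each pathway list, up to 3 higher and 3 lower genes with the smallest adjusted p and a mean of at least 10 CPM of the listed reads were named. A gene that this rule gives is not reported here. Nearest profiles were sought among genes above the same level. On simulated counts for this comparison, limma recovered 200 of 200 changed genes among 10542 and called 1 unchanged gene. When the simulation included a trend against GC that was left in, as it is in the main fit, it recovered 129 and called 147 unchanged genes, and with that trend removed, over 10537 genes, 200 and 1. Simulated calls needed both cutoffs, and the changes put in were larger than the fold-change cutoff, in genes with higher counts. Calls on adjusted p alone and smaller changes, as for most of the receptors, were not tested. Libraries of a group differed by a chi-square per gene of 2.96 to 26.6, and each was counted as a replicate. Depth is known for the listed genes only.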

Additional observations from a re-analysis of the deposited data

How the results depend on the processing

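With the GC and length trend removed, with or without a replicate block, receptors called higher went from 5 to 2 and receptors lower at both cutoffs from 1 to 0. Over all listed genes, the share called higher went from 47.6% to 15.6% at that step. With libraries also centred, 4 receptors were called higher and 0 were lower at both cutoffs, and AXL was at 0.28 and DDR1 at 0.11. The share of all listed genes called higher was not counted with centring. On the trend-removed scale AXL was at -0.047, DDR1 -0.22, FGFR4 -0.34, RYK 0.54, EFNA1 -0.42, SHC1 -0.20, FRS3 -0.26, SH2B1 -0.44, TNK2 -0.061, AP2A1 -0.25 and ADAM15 -0.40. With the libraries also centred, IGF1R was at 0.019, FGFR4 -0.014, RYK 0.87, FGF2 0.12, EFNA1 -0.089, EFNA5 0.25, KITLG 0.11, SH2B1 -0.11 and ADAM15 -0.077. The cause was not tested. Pair differences became -1.22 for EGFR over ERBB2, -1.16 for MET over AXL and -0.98 for IGF1R over INSR. EGFR joined MET past both cutoffs, making 2, with library totals (-1.50), with a cutoff of 1 and without DU145-TFEB replicate 3, so that leaving out 1 library gave 1 to 2.

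Genes of the 6 pathway lists called higher went from 71 to 20 with the trend removed, with or without the block, and to 43 with centring, and those lower from 66 to 40 with centring. Over all listed genes, the share called higher went from 47.6% to 15.6% with the trend removed, so the drop is not particular to these lists. The share called lower was 52.4% in the main fit, and neither share was counted with centring. Listed genes higher at both cutoffs numbered 268, but 114 with a pseudocount of 5, 89 with at least 10 reads in each library, 466 with DESeq2's size factors, 563 with quantile normalization, 484 with DESeq2, 151 with the trend removed, 150 with the block as well and 887 with a cutoff of 1. Those lower numbered 1741, but 1104 with DESeq2's size factors, 808 with quantile normalization, 1078 with DESeq2, 449 with the trend removed, 450 with the block as well, 251 with centring and 3274 with a cutoff of 1. Leaving out 1 library gave 243 to 295 higher and 1289 to 2048 lower.

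Deviations from the group means had correlations of -0.018, -0.246 and -0.141 between same-numbered libraries. Those between differently numbered libraries lay between -0.149 and 0.248. Such deviations sum to 0 within each group of 3, so the correlations cannot show whether the replicate numbers pair the samples. The replicate block gave 268 higher and 1743 lower at both cutoffs, with 5 receptors higher and 3 lower.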

Other observations

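Outside the genes chosen by rule, some receptors and ligands of low abundance were looked at after their values were seen. NRG1, ERBB4, FGF1 and DDR2 below fell, but others of low abundance on the same lists rose. Log2 fold changes were 1.45 for RET, 1.34 for MST1, 1.18 for FGF19 and 0.82 for FGFR2. RET, MST1 and FGF19 missed the threshold with the trend removed. The genes shown thus give no direction for the lists. NRG1, a ligand of ERBB3 and ERBB4, had 10.5, 5.46 and 11.4 normalized counts in DU145-TFEB against 56.9, 55.6 and 40.0 in DU145-vector, a log2 fold change of -2.39 (SE 0.316, limma adjusted p 8.38e-05). Its receptor ERBB4 had 1.05, 1.82 and 2.08 against 5.88, 13.7 and 11, so that NRG1 and ERBB4 were both lower in each DU145-TFEB library. ERBB4 missed the threshold with the trend removed and libraries centred (-0.78, adjusted p 0.165). FGF1, a ligand of FGFR1, had 8.42, 18.2 and 11.4 against 31.4, 43.9 and 55.0, while FGFR1 itself rose. DDR2, the other collagen receptor, had 21.0, 10.01 and 19.7 against 59.8, 67.3 and 37.0. DDR1 rose in the main fit but was at -0.22 with the GC and length trend removed and at 0.11 when the libraries were also centred. DDR2 missed the threshold with the trend removed and libraries centred (-0.50, adjusted p 0.129). FRS2, the docking protein of FGF receptors, fell from 679 ± 103 to 132 ± 57.2 (SD, n = 3), a log2 fold change of -2.45 (limma adjusted p 5.77e-05) and of -1.35 with the trend removed, and FRS3, a related docking protein, rose by 0.75 but was at -0.26 with the trend removed. IRS1, the docking protein of INSR and IGF1R, had 349, 338 and 361 against 524, 500.3 and 519 and fell by 0.56 on the log2 scale (limma adjusted p 3.26e-04), but was at -0.11 with quantile normalization and missed the threshold (adjusted p 0.312). At these counts NRG1, ERBB4, FGF1 and DDR2 rest on few reads per library, from at least 1 for ERBB4 to at least 11 for DDR2.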
